A study of Mus musculus with 15 samples.

Results

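Luminal epithelium (LE) of Notch1-overexpressing mouse uterus, from the group titled U-OEx, was compared with LE of wild-type uterus. The comparison used 6 of the 15 samples of the series, 3 LE libraries of each genotype, chosen by their sample titles and cell type labels. It covered the 6204 genes listed in the tables of both genotypes, out of 6414 listed in wild type and 27946 listed in U-OEx. All 6 libraries are labelled day 4, without a statement of what the days count, and the genotype is given as WT or as overexpression of Notch1. The labels name no promoter, Cre driver, allele or strain, and do not explain the abbreviation U-OEx. They do not say whether the libraries of a group came from separate animals. The p-values therefore set each difference against the spread between these libraries, which may not be the spread between animals. The other 9 samples, wild-type glandular epithelium (GE) and the group titled E-OEX, served only as described where they are named. Whether the 2 genotypes were sequenced together is not given, so a sequencing run and the genotype cannot be told apart.

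The luminal epithelium lines the uterine cavity and is the surface to which an embryo attaches. It divides under oestrogen, and progesterone then stops its division and switches on a receptive programme that lasts a short time. Notch1 is a receptor that is cut when a ligand on a neighbouring cell binds it; its inner part then joins the DNA-binding protein RBPJ and activates target genes, among them the Hes and Hey repressors.

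The listing of the wild-type genes shapes everything below. Each of the genes in the wild-type tables differed at least 2-fold between wild-type GE and wild-type LE, with a smallest absolute log2 ratio of 1.0001 between the group means. The wild-type LE values were therefore used in choosing the genes, and genes outside that list, such as Krt8, were not compared. Notch1 itself was listed in the U-OEx tables only, at deposited values of 2913, 3524 and 2789, so its overexpression could not be checked against wild type here. Every value given as rescaled reads is a whole read count recovered from the deposited table and put on 1 scale for the 6 libraries.

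Each wild-type library had 4573721 to 4797413 reads in the shared genes, and each U-OEx library 3140826 to 3638011. Correlations of log2 values across genes were 0.902 to 0.970 within a genotype and 0.642 to 0.692 between genotypes, and genes are not independent replicates. The first principal component held 81.1% of the variance and separated the genotypes. Epithelial markers were abundant in all 6 libraries. Of the 8 tested, Prom1 and Elf3 were higher in U-OEx, Cldn3, Cdh1 and Cldn7 were lower, and Krt19 and Esrp1 did not pass. The calls of Cdh1 and Cldn7 were lost under quantile normalization, at -0.40 and -0.01. Epcam, an epithelial adhesion protein, passed at a log2 fold change of -0.74 that turned to 0.34 under quantile normalization, so no direction is given for it. Krt19, a keratin of simple epithelia, stood at 11976 to 27843 rescaled reads in wild type and 17045 to 25434 in U-OEx. Of 8 squamous markers, 1 passed as lower and 7 did not pass; Trp63 stood at 0.968 to 38.2 rescaled reads over the 6 libraries, Dsg3 at 149 to 373 and Krt17 at 64.4 to 343. The squamous keratin Krt13 read 25.2, 462 and 29 in U-OEx, and Krt5, listed in the U-OEx tables only, was also highest in replicate 2 at deposited values of 65.3, 1154 and 75.9. Of 2 ciliated markers tested, Foxj1 was at 2.9 to 24.3 and did not pass, and Dnah5, a dynein of cilia, fell from 418, 218 and 348 to 0, 15.8 and 0.

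Markers of other cell types varied between libraries. Among 16 stromal markers 1 passed as higher and 3 as lower, and their summed level ran from 498 to 8299 rescaled reads in wild type and from 7986 to 21230 in U-OEx, where Postn alone read 6074 to 20611. Twist2 had no read in any U-OEx library. Within wild type, replicate 2 was the highest for every stromal marker tested but Vcan, which read 39.4, 38.6 and 31.8. The collagen gene Col1a1 read 60.2, 1638 and 466. Without wild-type replicate 1, 10 stromal markers passed in place of 4. Of 8 leukocyte markers, 7 were higher in U-OEx and none was lower, and the list summed to 1511 to 2832 rescaled reads in wild type and 5256 to 8418 in U-OEx. Only 4 of them passed when wild-type replicate 2 or 3, or U-OEx replicate 1 or 3, was left out. Cd74, the invariant chain of antigen presentation, read 243, 197 and 241 in wild type and 3210, 1757 and 1654 in U-OEx. Defining leukocyte genes were listed only in the U-OEx tables: the pan-leukocyte gene Ptprc stood at deposited values of 1570, 441 and 2705, and the neutrophil genes S100a8 and S100a9 at 6694, 455.9 and 10773 and at 7533, 617 and 13079. U-OEx replicate 2 was the lowest for all 3. Other leukocyte markers did not all share this order. Cd52 was lowest in U-OEx replicate 2, at 460, 120 and 832 rescaled reads. H2-Aa was lowest in replicate 1, at 240, 305 and 388, and Cd74 in replicate 3. In libraries of pooled cells, fewer cells of a type and less RNA per cell cannot be told apart.

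**Figure D1:**
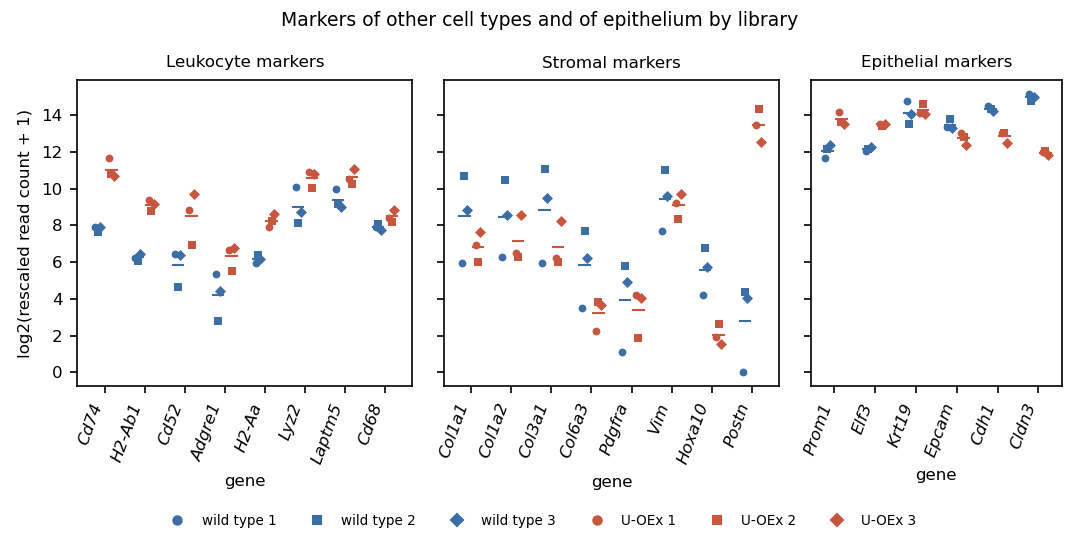
Leukocyte, stromal and epithelial marker genes by library. The y axis is log2 of rescaled reads plus 1, each point is 1 library (blue wild type, red U-OEx, shapes for replicates) and bars are group means of the log2 values. Cd74 lies between 197 and 243 rescaled reads in wild type and between 1654 and 3210 in U-OEx, while Col1a1 spreads from 60.2 to 1638 within wild type.

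At an adjusted p under 0.05 in limma, 3384 genes of 5949 were called, which is 56.9%. Higher levels in U-OEx were found for 29.1% of the genes tested and lower levels for 27.8%, and the groups did not overlap for 63.8%. These shares are the background for every count below. The split depended on the scaling: 51.1% of the calls were higher in U-OEx, against 66.9% when libraries were scaled to their total over the shared genes, which shifted the median over all genes, on the log2 scale, from 0.09 to 0.73. Changes passed 1 on the log2 scale for 3189 of the called genes, and 419 passed 5, of which 222 were higher and 197 lower. With genes at the detection floor set to their bounds the median over all genes was 0.00. The call followed the side of the wild-type list a gene came from. Among the 3188 tested genes that were higher in wild-type GE, 44.2% were higher in U-OEx LE and 7.56% lower. Among the 2761 that were higher in wild-type LE, 11.6% were higher in U-OEx LE and 51.2% lower. Because the wild-type LE values both chose the side and enter the fold change, these shares are a description.

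**Figure D2:**
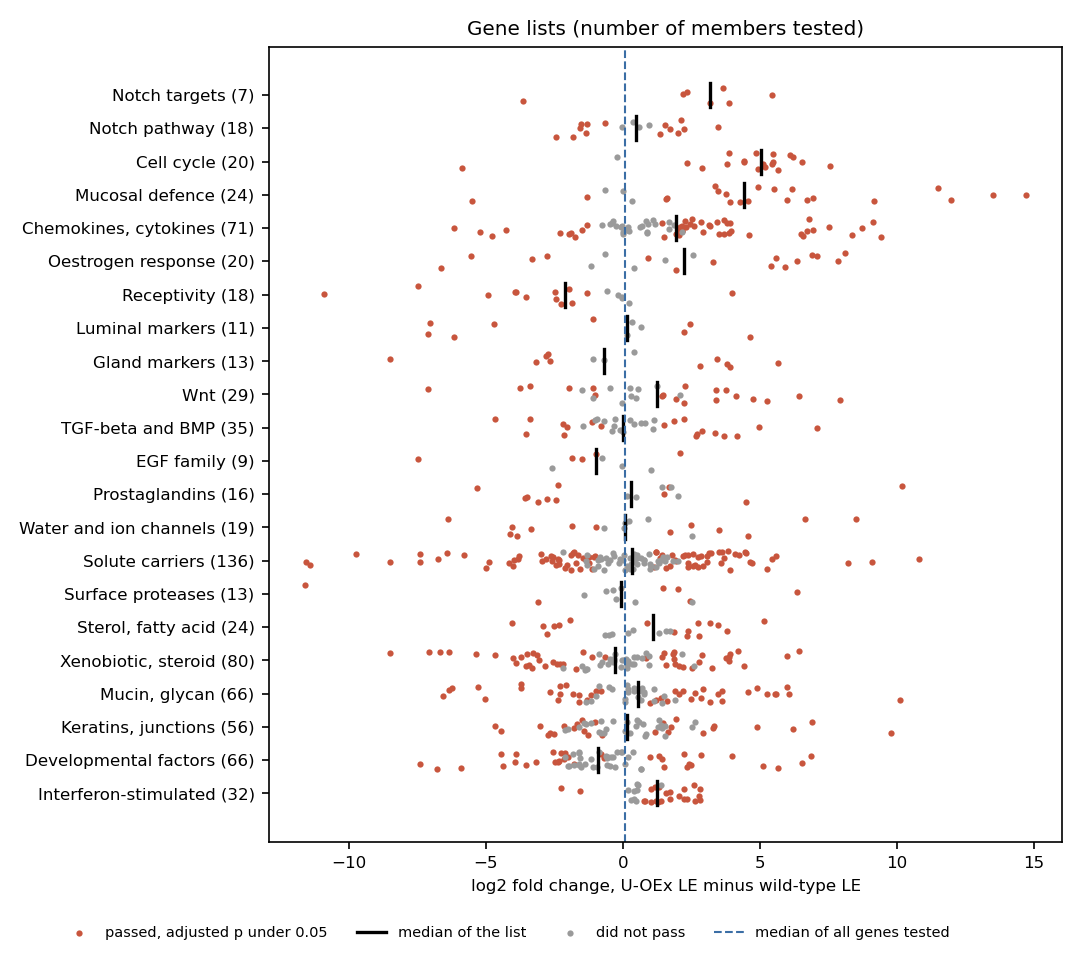
Log2 fold changes of the members tested in 22 gene lists, U-OEx LE minus wild-type LE. Each point is a gene, red where it passed and grey where it did not, black bars are list medians and the dashed line is the median of all genes tested at 0.09. The cell cycle list has a median of 5.04, the mucosal defence list 4.41 and the receptivity list -2.11.

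Notch target genes were mostly higher in U-OEx. Of 7 tested, 6 rose and 1 fell, with a median log2 fold change of 3.20 beside 0.09 over all genes. All 6 that rose were listed as higher in wild-type GE, where 44.2% of all genes rose. The 1 that fell, Hey2, was listed as higher in wild-type LE, where 51.2% of all genes fell. Heyl, a Hey-family repressor, read 3.47, 4.95 and 3.29 rescaled reads in wild type and 135, 740 and 93.9 in U-OEx (log2 fold change 5.45, SE 0.75, adjusted p = 5.06e-04). Its relative Hey1 read 34.7, 102 and 160 against 903, 1294 and 1001 (3.65, SE 0.52). Neither gene's groups overlapped. Hey2, the third member of the family, went the other way, from 308, 143 and 269 to 18.7, 18.5 and 15.5 (-3.63, SE 0.41, adjusted p = 1.67e-04). The cell cycle inhibitor Cdkn1a rose from 16.2, 56.5 and 32.9 to 309, 659 and 502. Dtx1, a ubiquitin ligase of the pathway, read 11.6, 29.7 and 9.87 against 163, 142 and 137. The transcription factors Sox9 and Myc rose less, by log2 fold changes of 2.34 and 2.19. Hes1, a classic Notch target, was listed in the U-OEx tables only, at deposited values of 2728, 2656 and 2454.

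Pathway components moved in both directions, with 7 of 18 higher, 7 lower and 4 not passed. Among receptors, Notch3 rose from 442, 399 and 245 to 1504, 2434 and 1292 rescaled reads (log2 fold change 2.25, SE 0.34, adjusted p = 7.47e-04). Notch2 and Notch4 did not pass, at log2 fold changes of 0.38 and 0.58, and passed at 1.07 and 1.25 under scaling to the total. Among ligands, Dll1 was low in every library and passed as higher (2.12), a call lost without wild-type replicate 3 or any 1 of the U-OEx replicates. Dll4 fell from 663, 274 and 264 to 67.2, 116 and 138, and this call was lost under scaling to the total. Of the glycosyltransferases that modify Notch receptors, Lfng (2.02) rose and Rfng (-1.35) fell, the latter call lost under scaling to the total; Mfng passed at 1.36, a call lost under the other scalings but 2, in both count tests and without any 1 library. Both Numb proteins, which inhibit Notch, were lower: Numb read 1734, 1974 and 1954 in wild type and 704, 608 and 649 in U-OEx, and Numbl fell by 2.44 on the log2 scale.

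Cell cycle genes were mostly higher in U-OEx. Of 20 tested, 18 rose, 1 fell and 1 did not pass, with a median log2 fold change of 5.04, and 17 of them had been listed as higher in wild-type GE, where 44.2% of all genes rose. Mki67, a protein of dividing nuclei, read 81, 39.6 and 37.3 rescaled reads in wild type and 3300, 3919 and 4190 in U-OEx (log2 fold change 6.23, SE 0.34, adjusted p = 9.06e-06). The mitotic kinase gene Aurkb read 6.94, 1.98 and 1.1 against 641, 802 and 633, a log2 fold change of 7.55. All wild-type libraries were below all U-OEx libraries for both. Cyclin B1 (Ccnb1) went from 11.6, 8.92 and 6.58 to 644, 762 and 642, and the replication helicase subunit Mcm5 from 76.4, 100 and 65.8 to 1047, 1405 and 940. Cyclin E1 (Ccne1) rose at a log2 fold change of 4.95 and the transcription factor E2f1 at 4.43. Other replication genes of the list, among them Pcna and Mcm2, were listed in the U-OEx tables only and not compared. Tyms, the thymidylate synthase, did not pass (-0.19), and without wild-type replicate 2 it passed at -0.57. Inhibitors of the cycle split. Cdkn2b (2.91) and Cdkn2c (2.36) rose together with Cdkn1a, while Cdkn1c (p57) fell from 1066, 3896 and 2472 to 41.1, 28.1 and 41.6 (-5.86, SE 0.47, adjusted p = 3.50e-05).

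**Figure D3:**
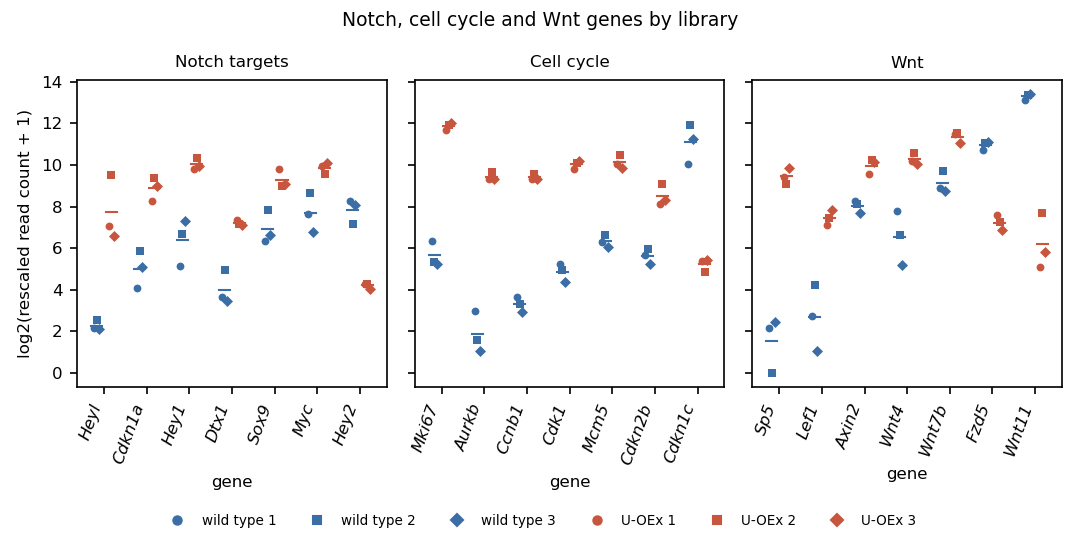
Notch target, cell cycle and Wnt genes by library, as log2 of rescaled reads plus 1 (blue wild type, red U-OEx, shapes for replicates, bars for group means of the log2 values). Mki67 lies between 37.3 and 81 rescaled reads in wild type and between 3300 and 4190 in U-OEx, while Hey2, Cdkn1c, Fzd5 and Wnt11 lie lower in U-OEx.

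Promoters of the cell cycle genes are shown because these genes moved together, and because late cell cycle promoters are known to carry a CHR element and CCAAT boxes. The windows are the 250 bases before the RefSeq transcription start (GRCm38.p6), and 17 of the 20 genes matched the table. Letters searched on both strands were TTTGAA for the CHR and CCAAT for the box, and matches of the 2 motifs, which can overlap, did not do so in the windows printed. The CHR letters were in the windows of 5 of the 17 genes (29.4%), against 18.3% of the 27025 genes with a window. CCAAT was in 10 of 17 (58.8%), against 37.5%. Both were in 4 genes (23.5%), against 6.45%. Among the 3771 tested genes with a window the shares were 14.9% for the CHR letters, 40.3% for CCAAT and 5.2% for both. A match is a description of the letters and not a site or a cause. The 4 windows with both are printed 5′ to 3′ on the gene's strand, with matches on either strand in capitals. They lie at chr7:135716380-135716629 (minus strand), chr10:69352913-69353162 (minus strand), chr9:70421555-70421804 (minus strand) and chr4:118437344-118437593 (minus strand).
Mki67: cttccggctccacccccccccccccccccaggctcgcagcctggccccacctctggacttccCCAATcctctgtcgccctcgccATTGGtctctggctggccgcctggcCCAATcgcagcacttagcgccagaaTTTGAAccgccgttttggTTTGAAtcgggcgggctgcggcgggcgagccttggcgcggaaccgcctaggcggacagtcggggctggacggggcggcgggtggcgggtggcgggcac
Cdk1: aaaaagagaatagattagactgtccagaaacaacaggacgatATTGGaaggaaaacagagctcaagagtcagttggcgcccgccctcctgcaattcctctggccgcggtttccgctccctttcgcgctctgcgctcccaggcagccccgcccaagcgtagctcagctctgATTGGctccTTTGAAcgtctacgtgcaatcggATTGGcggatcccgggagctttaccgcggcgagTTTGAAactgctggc
Ccnb2: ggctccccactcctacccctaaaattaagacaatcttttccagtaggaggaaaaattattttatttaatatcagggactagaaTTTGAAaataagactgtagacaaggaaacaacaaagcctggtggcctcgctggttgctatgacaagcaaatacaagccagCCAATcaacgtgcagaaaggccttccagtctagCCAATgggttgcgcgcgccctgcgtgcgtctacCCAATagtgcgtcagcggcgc
Cdc20: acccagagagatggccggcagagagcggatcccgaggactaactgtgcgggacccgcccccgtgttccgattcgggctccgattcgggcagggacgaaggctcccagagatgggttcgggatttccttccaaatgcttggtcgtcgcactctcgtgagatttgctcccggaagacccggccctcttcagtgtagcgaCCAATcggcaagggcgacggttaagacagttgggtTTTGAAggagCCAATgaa
For RBPJ the letters GTGGGAA were searched in the same way. They were in the windows of 6.18% of genes, and in 1 of the 3 tested Notch targets with a window, Hey2, starting 207 bases before the start (chr10:30842784-30843033 (minus strand)). That window is printed because Hey2 was the target that fell.
Hey2: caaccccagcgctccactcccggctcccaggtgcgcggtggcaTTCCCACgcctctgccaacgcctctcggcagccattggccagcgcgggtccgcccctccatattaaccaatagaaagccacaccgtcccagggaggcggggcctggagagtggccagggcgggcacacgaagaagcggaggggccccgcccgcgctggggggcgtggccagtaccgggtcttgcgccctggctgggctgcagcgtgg

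Mucosal defence genes were higher in U-OEx for 19 of the 24 tested, lower for 2 and not passed for 3. Of the 15 listed as higher in wild-type GE, 14 rose, where 44.2% of all such genes did. Of the 9 listed as higher in wild-type LE, 5 rose, where 11.6% of all such genes did. Their median log2 fold change was 4.41, or 4.02 with floor genes at their bounds. Olfm4, a secreted glycoprotein of mucosal epithelium, had no read in any wild-type library and 48602, 17617 and 22330 rescaled reads in U-OEx, at least 9100-fold higher at a floor of 3 reads per library. Dmbt1, a mucin-like protein that binds bacteria, had 3 reads over the wild-type libraries and 30085, 31430 and 10994 rescaled reads in U-OEx. That is a ratio of 22700 with a 95% counting interval of 7770 to 110000. Both genes were high in all 3 U-OEx libraries. Nos2, the inducible nitric oxide synthase, had 1 read in wild type against 8178, 2356 and 7419. Haptoglobin (Hp) had 5 against 8456, 5687 and 6537, a ratio of 3830 with a counting interval of 1640 to 11800. Such intervals cover counting error only, not the spread between libraries. Muc20, a membrane mucin, read 50.9, 40.6 and 30.7 in wild type and 2766, 2449 and 2556 in U-OEx, and the epithelial chemokine Ccl28 rose from 41.7, 13.9 and 12.1 to 3170, 2136 and 2258. Reg3g and Reg3b, antibacterial lectins with similar sequences, were both higher, and reads may be shared between them. Against the direction of the list, Wfdc2 fell from 24234, 25147 and 20437 to 8939, 11467 and 8273, a call lost at -0.08 under quantile normalization, and lysozyme Lyz1 from 102, 65.4 and 128 to 0.934, 0 and 3.87, with reads possibly shared with Lyz2.

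Leukocyte genes moved with part of this list. S100a8 had deposited values of 6694, 455.9 and 10773 in U-OEx. Cxcl5, a neutrophil attractant, was also lowest in replicate 2, at 12505, 1715 and 7233 rescaled reads, and Nos2 likewise at 2356. The part of leukocytes in the result was not tested. In U-OEx replicate 2, where S100a8 and Ptprc were lowest, Olfm4 was also at its lowest in U-OEx, at 17617 rescaled reads. Muc20 varied little over the U-OEx libraries, at 2766, 2449 and 2556. Dmbt1 at 31430 and Reg3g at 1831 were at their highest in U-OEx replicate 2.

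**Figure D4:**
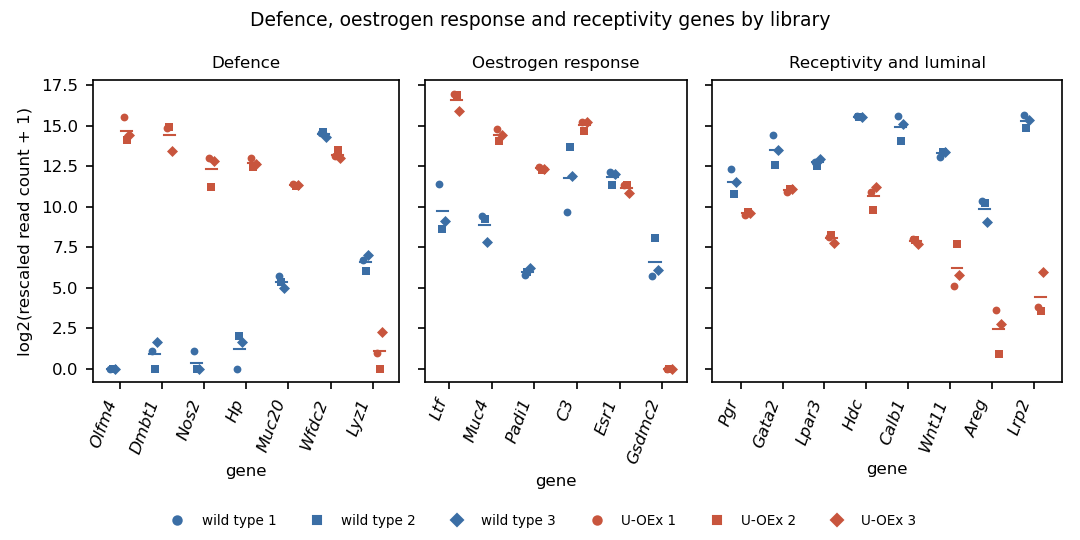
Defence, oestrogen response, and receptivity and luminal genes by library, as log2 of rescaled reads plus 1 (blue wild type, red U-OEx, shapes for replicates, bars for group means of the log2 values). Olfm4 is at 0 in the 3 wild-type libraries and at 17617 or more in U-OEx, while Lrp2 falls from at least 29899 to at most 61 rescaled reads.

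Chemokines, cytokines and their receptors were higher for 37 of 71 and lower for 10, with a median log2 fold change of 1.94, or 1.50 with floor genes at their bounds. Interleukin 1 beta (Il1b), an inflammatory cytokine, read 3.47, 0.991 and 5.49 rescaled reads in wild type and 3444, 971 and 5401 in U-OEx (log2 fold change 9.41, SE 0.69). The neutrophil chemokine Cxcl2 went from 3.47, 9.91 and 1.1 to 4820, 785 and 4624, and Tnf from 1.16, 6.94 and 2.19 to 1736, 692 and 1619. U-OEx replicate 2 was the lowest in each case, as it was for Ptprc at 1570, 441 and 2705 deposited. The same library was lowest for Mmp9, a gelatinase, with no wild-type read and 1813, 492 and 3192 in U-OEx, and for Clec4e, a myeloid receptor, at 1447, 284 and 1397. The part of leukocytes in these rises was not tested. Leukaemia inhibitory factor (Lif), the gland cytokine needed for implantation, rose from 23.1, 51.5 and 41.7 to 559, 399 and 825. Its receptor Lifr fell from 1808, 3744 and 2667 to 993, 1382 and 897, a call lost under 2 scalings and without U-OEx replicate 1 or 3. The interleukin 17 receptor subunit Il17rb fell from 17880, 43486 and 36400 to 430, 484 and 371 (-6.16, SE 0.34, adjusted p = 9.06e-06).

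Interferon-stimulated genes were mostly higher, with 21 of 32 rising, 2 falling and a median log2 fold change of 1.25. Of the list, 30 of these 32 were listed as higher in wild-type LE, a side on which 11.6% of all genes rose and 20 of these 30 did. Oas3, a sensor of double-stranded RNA, read 399, 354 and 315 in wild type and 2079, 2125 and 2321 in U-OEx (2.61, SE 0.21, adjusted p = 4.06e-05). Oas2, another, read 1458, 3934 and 1707 against 9450, 10156 and 10665. Isg15, a ubiquitin-like modifier, rose by 1.74 on the log2 scale. The RNA sensor Ddx58 went the other way, from 8447, 9267 and 10423 to 1895, 1940 and 2045 (-2.25).

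Genes of an oestrogen response list, which also holds the receptor gene Esr1, were higher for 11 of 20 and lower for 4, with a median log2 fold change of 2.24. The oestrogen receptor gene Esr1 did not pass, at 4481, 2659 and 4175 rescaled reads in wild type and 2630, 2585 and 1849 in U-OEx (-0.66, SE 0.27, adjusted p = 0.0686). It passed at -0.94 with upper-quartile scaling, at -0.77 with median-of-ratios scaling, at -0.79 in DESeq2, and at -0.90 without wild-type replicate 2. Lactoferrin (Ltf), a classic oestrogen-induced secretion, read 2703, 403 and 561 against 129676, 125043 and 63137 (6.89, SE 0.66, adjusted p = 8.51e-05). Every U-OEx library was above every wild-type library. Padi1, which converts arginine to citrulline in proteins, rose from 54.4, 62.4 and 73.5 to 5595, 5001 and 5274, and the membrane mucin Muc4 from 703, 617 and 224 to 29050, 17240 and 22574. Complement C3 varied widely within wild type, and its groups did not overlap, at 823, 13204 and 3799 against 39193, 25950 and 39060. Inhbb, an activin subunit, rose by 7.10 on the log2 scale. Igf1 passed as lower with overlapping groups, at 23.1, 420 and 202 in wild type and 9.34, 22 and 26.1 in U-OEx (-2.77, SE 0.98). Within wild type Igf1 was highest in replicate 2, as the collagens of the stromal list were, and the part of stroma was not tested. Members of clustered families also moved, with Sprr2b, Clca3a1 and Clca3a2 higher and Sprr2g, Gsdmc and Gsdmc2 lower; reads may be shared among their near copies. Gsdmc2 read 50.9, 265 and 66.9 in wild type with no read in U-OEx, at least 45.8-fold lower.

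Receptivity genes were lower in U-OEx for 12 of 18, higher for 1 and not passed for 5, with a median log2 fold change of -2.11. Of the 10 listed as higher in wild-type LE, 9 fell, where 51.2% of all such genes did. The progesterone receptor gene Pgr read 5245, 1769 and 2916 in wild type and 711, 833 and 776 in U-OEx (-1.96, SE 0.37, adjusted p = 0.00267). Gata2, a transcription factor that acts with it, fell from 22554, 6129 and 11475 to 1968, 2179 and 2216. The groups did not overlap for either gene. Amphiregulin (Areg), a progesterone-induced EGF-family ligand, went from 1326, 1213 and 529 to 11.2, 0.879 and 5.81 (-7.46, SE 0.71), and the endocytic receptor Lrp2 from 52212, 29899 and 42777 to 13.1, 10.6 and 61 (-10.88, SE 0.60, adjusted p = 9.06e-06). Hdc, which makes histamine, fell from 49893, 48738 and 47900 to 1905, 906 and 2401. Klf15 and Alox15 fell by 3.94 and 2.43 on the log2 scale, and for Alox15 the groups overlapped and the call was lost under 2 scalings and without wild-type replicate 2 or 3 or U-OEx replicate 1 or 3. Hoxa10 and Hoxa11, homeobox genes that are also on the stromal list, were lower too, and were highest in wild-type replicate 2 as the collagens were, at 17.4, 110 and 52.7 for Hoxa10; the part of stroma was not tested. Msx2, a homeobox transcription factor, was the member that rose, from 110, 22.8 and 20.8 to 494, 746 and 613 (3.98, SE 0.61). Its partner Msx1 was listed in the U-OEx tables only.

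Luminal markers split by gene. Of 11 tested, 3 rose, 5 fell and 3 did not pass. Of the 9 listed as higher in wild-type LE, 2 rose and 5 fell, where 11.6% and 51.2% of all such genes did. Vdr, which rose from 4.63, 0 and 0 to 33.6, 55.4 and 44.5 rescaled reads, was listed as higher in wild-type GE. Calbindin (Calb1), a calcium-binding protein, read 50272, 17233 and 35124 in wild type and 258, 250 and 211 in U-OEx (-7.03, SE 0.37, adjusted p = 8.11e-06). Lpar3, the lysophosphatidic acid receptor that sets embryo spacing, fell from 7054, 5983 and 7794 to 280, 304 and 217. Each U-OEx library was far under the lowest wild-type library for both. Krt19 (0.16) did not pass, and Wnt7b rose from 469, 847 and 425 to 2915, 2996 and 2108. Wnt7a was lower by a log2 of -1.07, a call lost under 2 of the scalings and without wild-type replicate 2 or 3 or U-OEx replicate 1 or 3.

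Gland markers also divided, with 5 of 13 higher, 5 lower and 3 not passed. Foxa2, the transcription factor of uterine glands, rose from 16.2, 3.96 and 12.1 rescaled reads to 688, 466 and 444 (5.66, SE 0.51, adjusted p = 6.45e-05). Cxcl15, a gland chemokine, rose from 10.4, 6.94 and 5.49 to 162, 135 and 70.7, and the secreted protein Prap1 from 110, 81.3 and 61.4 to 488, 1923 and 782. Sox17, needed for gland formation, fell from 29254, 23597 and 26769 to 2818, 3255 and 2708 (-3.18, SE 0.19), and Sult1d1, a sulfotransferase, from 7097, 2573 and 6068 to 7.47, 25.5 and 9.68. Prap1 and Sox17 had been listed as higher in wild-type LE and Sult1d1 as higher in wild-type GE. Of the 9 members listed as higher in wild-type GE, 4 rose and 2 fell, where 44.2% and 7.56% of all such genes did. Of the 4 listed as higher in wild-type LE, 1 rose and 3 fell, where 11.6% and 51.2% of all such genes did. The gland protease Prss29 had 9 reads in wild-type replicate 2 and none in U-OEx, which was not detectable as a difference at this depth.

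EGF-family receptors and ligands were higher for 1 of 9 and lower for 4. Besides Areg, the receptor Egfr fell from 2127, 504 and 1281 to 325, 371 and 236, a call lost under scaling to the total and without wild-type replicate 3 or U-OEx replicate 3. Erbb3 fell from 3891, 3049 and 3766 to 2093, 1773 and 1650, a call lost under 2 scalings. Erbb2 was at -0.02 and took 0.67 and 0.71 under those scalings. The feedback inhibitor Errfi1 fell from 1926, 2646 and 3135 to 743, 1063 and 939. Lrig3 was the member that rose, at a log2 fold change of 2.08.

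Wnt genes were higher for 13 of 29, lower for 6 and not passed for 10. Some transcriptional readouts rose. Sp5 went from 3.47, 0 and 4.39 rescaled reads to 694, 542 and 925 (log2 fold change 7.93, SE 0.66, adjusted p = 4.47e-05), and Lef1 from 5.79, 17.8 and 1.1 to 137, 174 and 224. Axin2, a feedback inhibitor, read 306, 280 and 207 against 748, 1202 and 1124. All 3 genes were higher in every U-OEx library. Lgr5 (-0.47), Notum (0.30) and Znrf3 (0.25) of the same list did not pass. Among ligands Wnt5b (6.43) and Wnt4 (3.75) rose, while Wnt11 fell from 8796, 10569 and 10907 to 33.6, 205 and 55.2 (-7.09, SE 0.58). Frizzled receptors moved both ways: Fzd1 rose from 291, 256 and 126 to 2514, 2328 and 1891 and Fzd7 from 44, 40.6 and 45 to 855, 632 and 827, while Fzd5 fell from 1699, 2120 and 2199 to 190, 150 and 117 and Fzd6 by 3.39 on the log2 scale. The secreted antagonist Dkk2 rose by 5.28.

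TGF-beta and BMP genes showed no common direction, with 11 of 35 higher, 8 lower and a median of 0.01. Tgfb1, a ligand, rose from 89.1, 59.5 and 50.5 to 664, 717 and 665, and Ltbp1, which holds TGF-beta in the matrix, from 46.3, 178 and 81.2 to 3220, 4047 and 1666. The BMP target gene Id1 read 659, 299 and 392 against 2356, 2857 and 3229. Bambi, a decoy receptor, fell from 4608, 1671 and 3379 to 117, 101 and 135 (-4.65, SE 0.38, adjusted p = 3.90e-05), and the coreceptor Tgfbr3 by 3.39 on the log2 scale.

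Prostaglandin genes were higher for 4 of 16 and lower for 7. On the synthesis side, Pla2g4a, which releases arachidonic acid, fell from 11409, 3812 and 8302 to 1051, 793 and 720, and the cyclooxygenase Ptgs1 from 3925, 2010 and 2308 to 274, 464 and 452. Ptgs2, the inducible cyclooxygenase, passed at 1.70, a call lost in both count tests, under 3 of the other scales and without any 1 U-OEx library, and the prostaglandin E synthase Ptges rose from 0, 7.93 and 0 to 3102, 2093 and 2147 (10.18, SE 0.82, adjusted p = 3.58e-05). The transporter Slco2a1 rose from 155, 71.3 and 48.3 to 1952, 2772 and 1217. Of the prostaglandin E2 receptors, Ptger2 fell from 2794, 3481 and 3186 to 122, 47.5 and 83.2 and Ptger4 from 1574, 1040 and 1796 to 214, 373 and 272, while Ptger1 and Ptger3 were listed in the U-OEx tables only and not compared.

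Water and ion channels moved both ways, with 6 of 19 higher, 7 lower and 6 not passed. The water channel Aqp4 rose from 39.4, 2.97 and 17.6 rescaled reads to 8901, 3257 and 4933 (8.51, SE 0.79), and Aqp5 from 33.6, 8.92 and 4.39 to 1972, 1206 and 781. Aqp11 fell from 3644, 1214 and 2812 to 28.9, 45.7 and 14.5 (-6.38, SE 0.53), and Aqp1 from 223, 440 and 180 to 14, 12.3 and 16.5. The sodium pump subunit Atp1b1 fell from 29118, 13279 and 20934 to 2606, 1867 and 1564, and its regulator Fxyd4 from 27504, 13732 and 21221 to 1807, 855 and 1705. The chloride channel Cftr (0.03) and the sodium channel subunit Scnn1a (0.23) did not pass.

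Solute carriers were higher for 44 of 136, lower for 43 and not passed for 49. The phosphate carrier Slc34a2 rose from 3.47, 3.96 and 3.29 to 11678, 5975 and 8007 (10.82, SE 0.32, adjusted p = 1.70e-06), and the iron exporter Slc40a1 from 193, 55.5 and 75.7 to 4574, 3061 and 3530. The citrate carrier Slc13a5 read 3261, 1550 and 3980 with no read in U-OEx, at least 1050-fold lower, and the inositol carrier Slc5a11 read 5822, 3165 and 5618 with 2 reads over the U-OEx libraries, a ratio of 7770 with a counting interval of 2150 to 64100. The glucose carriers Slc2a12 and Slc2a3 fell by 9.74 and 5.78 on the log2 scale, and Slc25a48, a mitochondrial carrier, went from 41973, 24872 and 31436 to 154, 303 and 150. Among surface proteases 4 of 13 rose and 2 fell, and the count was 3 without wild-type replicate 3, U-OEx replicate 1 or U-OEx replicate 3. The membrane peptidase Mme fell from 45956, 28946 and 54497 to 23.3, 7.91 and 10.6 (-11.58, SE 0.41, adjusted p = 2.60e-06), the largest fitted fall among the genes named by the rule.

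Keratin, cadherin, claudin and other junction genes were higher for 12 of 56 and lower for 14. Cldn3, a tight junction claudin, fell from 36682, 28128 and 32864 rescaled reads to 4073, 4200 and 3703 (-3.02, SE 0.19, adjusted p = 1.47e-05), while Cldn2, a pore-forming claudin, rose from 0, 4.95 and 1.1 to 247, 121 and 166. E-cadherin (Cdh1) read 23129, 20452 and 18979 against 8427, 8340 and 5668, a log2 fold change of -1.50 that became -0.40 and did not pass under quantile normalization. Occludin (Ocln) fell by 1.76 on the log2 scale. Cdh13, a cadherin without an intracellular part, rose from 2.31, 8.92 and 1.1 to 657, 347 and 531. Postn, a matrix protein and a member of the stromal list, rose from 0, 19.8 and 15.4 to 11409, 20611 and 6074 (10.66, SE 1.08, adjusted p = 1.04e-04). Col1a1, Col1a2 and Col3a1 of the same list did not pass, at log2 fold changes of -1.64, -1.31 and -2.02.

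Developmental transcription factors were higher for 14 of 66, lower for 20 and not passed for 32. Besides Foxa2, Foxq1 rose from 1.16, 4.95 and 1.1 to 336, 432 and 301 (6.88, SE 0.53), and Nr2f1 had 2 reads over the wild-type libraries against 114, 155 and 146, a ratio of 193 with a counting interval of 53.1 to 1600. Sox5 fell from 2763, 1429 and 2399 to 8.4, 29 and 25.2 (-6.76, SE 0.49, adjusted p = 2.23e-05). Klf8 fell by 4.45 on the log2 scale.

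Sterol and fatty acid genes were higher for 10 of 24, lower for 6 and not passed for 8. In sterol synthesis Mvd rose from 145, 141 and 93.3 to 1649, 1023 and 1589 and Sqle by 2.80 on the log2 scale, while Dhcr7, which makes cholesterol in a late step, fell from 1707, 1533 and 1242 to 298, 353 and 250. Acaca, which commits acetyl-CoA to fatty acids, went from 4894, 3141 and 4218 to 585, 557 and 461 (-2.92, SE 0.24), and Scd1 and Acsl4 fell by 2.75 and 4.04. The fatty acid binding protein Fabp5 rose from 46.3, 20.8 and 27.4 to 1346, 940 and 1083. Xenobiotic and steroid enzymes were higher for 22 of 80 and lower for 25. Gstm1 and Gstm2, glutathione transferases with similar sequences that may share reads, fell from 45618, 26663 and 39564 to 2107, 2704 and 2465 and from 44822, 25076 and 39550 to 847, 1059 and 735. The monooxygenase gene Fmo1 rose from 11.6, 21.8 and 6.58 to 1652, 717 and 1145.

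Mucin and glycan enzymes were higher for 23 of 66 and lower for 19. The sialyltransferase St8sia6 had 1 read over the wild-type libraries and 1088, 2152 and 1180 rescaled reads in U-OEx, a ratio of 4150 with a counting interval of 745 to 164000. The hyaluronan synthase Has2 rose from 0, 8.92 and 1.1 to 94.3, 53.6 and 108. B3gnt5, which starts lacto-series glycolipids, fell from 4037, 329 and 1377 to 21.5, 10.6 and 15.5 (-6.24, SE 0.81), and Gcnt3, which branches mucin glycans, from 9912, 1253 and 3958 to 150, 90.6 and 102. Wild-type replicate 2 was the lowest wild-type library for both, and still above every U-OEx library.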

How the data were processed

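RNA-seq libraries of mouse uterine epithelium were compared, 3 of U-OEx LE and 3 of wild-type LE. The deposited values are read counts that the authors divided by 1 factor per library, a scaled signal; this was read from the values. The submitters' processing notes name builds GRCm38 and mm10; the aligner, counter, annotation and scaling method are not given in the sources used here. Dividing by each library's smallest positive value gave whole reads, within 0.01, for 100% of values. Reads of the 6204 shared entries, 308 without an Ensembl identifier, were rescaled together (TMM, edgeR 4.0.16) and tested with limma 3.58.1 (R 4.3.3; trend) on log2(value + 1) for genes with a mean of at least 1, with Benjamini-Hochberg adjustment and a threshold of 0.05. The log2(value + 1) scale understates low genes. On the recovered reads edgeR's quasi-likelihood test called 3234 genes and DESeq2 1.42.0 called 3485. The script was tested on simulated data. Replicates within a group differed by more than counting noise, with a chi-square of 41.9 to 182 per degree of freedom.

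A rule set the genes to be named. It took the 15 largest rises and 15 largest falls among called genes without overlap and with a higher mean of at least 100. It added up to 8 called members per list by size, and every tested member of lists of 20 or fewer. The text prints only part of this set and leaves out the endothelial and muscle lists. Members and lists were chosen with earlier results of these data known. A further 43 genes named in the text were chosen after their values were seen. Groups at 3 reads or fewer per library got a bound where the count was 0 and a 95% exact counting interval where it was not. A gene not listed in a table was never read as 0. The result of 1 gene is not reported here.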

Additional observations from a re-analysis of the deposited data

How the results depend on the processing

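The count of 3384 called genes stayed between 2757 (without wild-type replicate 3) and 3439 (without wild-type replicate 2) when 1 library was left out, and between 3011 and 3563 under the other scalings, pseudocounts, filters and tools. It fell to 1176 with U-OEx replicate 2 as the only U-OEx library, an alternative chosen after seeing the data in which 1 library with no spread of its own is set against 3, and to 1063 of 2657 genes with E-OEX LE also in the fit, where fewer genes are listed. In every setting all calls shared with the reported ones had the same direction. The share of calls higher in U-OEx moved from 51.1% to 66.9% with scaling to the total of shared genes. Epcam reversed to 0.34 (adjusted p = 0.297) under quantile normalization, and Erbb2 reversed to 0.67 (0.0167) with total scaling and to 0.71 (0.0146) under quantile normalization, where limma gave the adjusted p; the cause was not tested. A replicate block gave 3182 called genes, 3122 of them among the reported calls; deviations of same-numbered libraries correlated at 0.0825, -0.136 and 0.0263, so the numbers were not taken to pair the samples. Depth limits genes at or under 3 reads, where 936 of the genes tested had 1 group at that floor.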
